A study of Bos taurus with 16 samples.

Results

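The integrin and laminin genes of cultured bovine (Bos taurus) luteal cells are described here across interferon tau, prostaglandin F2 alpha and their combination. They were chosen by symbol from the deposited table of 16 samples: integrin alpha chains (ITGA), integrin beta chains (ITGB) and laminin alpha, beta and gamma chains (LAMA, LAMB, LAMC). Of 18705 genes in that table, 37 carry such a symbol: 18 alpha chains, 8 beta chains and 11 laminin chains. Of these, 34 were tested, since they reached 10 normalized counts in 4 or more of the 16 samples; the same filter left 14122 genes in all. The 3 that did not pass were ITGAD with a mean normalized count of 3.03, ITGB6 with 1.30, and ITGAX, which had a read in 1 sample alone.

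The cells were primary mixed luteal steroidogenic cells, dissociated from corpora lutea taken on days 10 to 12 of the estrous cycle. They were treated for 24 h in medium that contained luteinizing hormone (LH) at 10 ng/mL in all groups, controls included. The 4 groups of 4 samples were the untreated control, IFNT (interferon tau) at 1 ng/mL, PGF2A (prostaglandin F2 alpha) at 10 ng/mL, and IFNT+PGF2A at the same concentrations. Each sample pooled the wells of a triplicate, and samples are numbered 1 to 4 in each group. What a number stands for (an animal, a culture) is not stated in the labels, so p-values measure only the spread between these samples, which may be technical.

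Integrins are receptors made of an alpha and a beta chain that anchor cells to the extracellular matrix or to other cells and signal through focal adhesions. Laminins are assembled from an alpha, a beta and a gamma chain and form the main cell-adhesive network of basement membranes, where several integrins bind them. In cattle, interferon tau is the conceptus signal that maintains the corpus luteum, and prostaglandin F2 alpha is the hormone that brings about its regression. In bulk RNA such as this, fewer cells of a type and less RNA per cell cannot be told apart.

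Between 23786067 and 25906276 reads per sample were assigned to genes, and the members took between 0.536% and 0.935% of them. Markers of steroidogenic luteal cells were present in every sample, with normalized counts of 10717 to 43704 for CYP11A1 and 7461 to 22386 for HSD3B1. Markers of other cells were present as well: the fibroblast collagen gene COL1A1 had 148317 to 504114 normalized counts, and 12 of 12 endothelial markers passed the filter. Library IFNT number 4 stood apart from its group: 16.57% of all genes lay more than 2-fold from the median of the other 3 IFNT samples, against 4.09% to 7.19% for the other 15 libraries. Log2 changes for IFNT against control that moved by over 1.5 times without it are given below with and without it. Samples with the same number also deviated together in all genes (correlation of their deviations from the group means 0.352 to 0.719 over 24 pairs), so fits with the number as a block stand beside the results they change.

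The first question was what IFNT did to these genes without PGF2A. With IFNT, 6 of 34 members passed the test against control (limma on log2 normalized counts, Benjamini-Hochberg adjusted p under 0.05 over all genes tested). That is 17.65% of the members, beside 24.0% of all genes tested. ITGA9 rose, where 13.1% of all genes did. LAMA1, LAMA3, LAMB1, ITGAE and ITGA11 fell, where 10.9% of all genes did. Of the 6, 3 were laminin chains and 3 were integrin alpha chains, and none of the 7 beta chains passed. The median log2 change was -0.01 over the 34 members and -0.04 over all genes tested.

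The same 6 genes passed, in the same directions, for IFNT+PGF2A against PGF2A, a comparison that uses the other 8 samples but the same estimate of spread. There 20.9% of all genes passed, 12.3% higher and 8.54% lower. With the number as a block, 9 members passed for IFNT against control beside 43.5% of all genes, and 11 for IFNT+PGF2A against PGF2A beside 40.3%. The members' share of calls was below the background in each of these 4 counts.

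**Figure D1:**
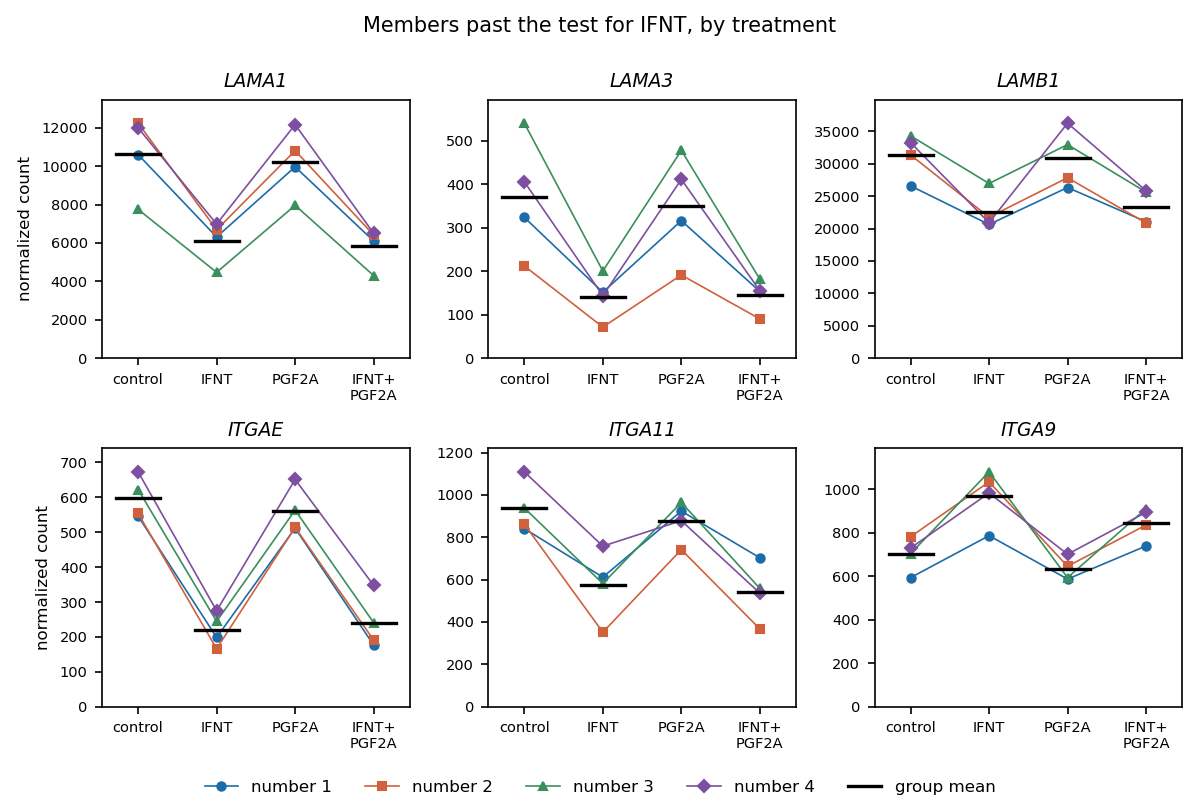
Normalized count (vertical axes, starting at 0) of the 6 members that passed the test for IFNT, by treatment group. Points are the 4 samples of a group, lines join samples with the same number and black bars are group means; ITGAE was 166.1 to 347.8 in the 8 samples with IFNT and 511.6 to 673 in the 8 without.

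Among the laminin chains, LAMA1 (gene ID 506387), an alpha chain found in epithelial and embryonic basement membranes, was measured at 10601, 12238, 7750 and 11995 normalized counts in control samples 1 to 4. With IFNT it was measured at 6308, 6684, 4465 and 6981. The groups did not overlap, as for 9.87% of all genes in the lower direction, and every numbered pair was lower by a like amount. The log2 change was -0.80 (SE 0.19, n = 4 and 4, limma adjusted p = 0.00559), from a mean of 10646 ± 2061 (SD) to 6109 ± 1131. The log2 changes of the 4 pairs were -0.75, -0.87, -0.80 and -0.78, a narrower spread than that of the samples in either group.

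Against a PGF2A background, LAMA1 was measured at 9964, 10809, 7958 and 12163 in PGF2A samples 1 to 4. It was measured at 6100, 6416, 4300 and 6505 with IFNT+PGF2A. These groups did not overlap either, and the log2 change was -0.81 (SE 0.19, limma adjusted p = 0.00558). LAMA1 was lower in all 8 samples with IFNT than in any of the 8 without it, and ITGAE was the other member of which this held. Such a gap in the lower direction was found for 5.62% of all genes; in the higher direction it was found for no member and 8.80% of all genes. Number 3 had the lowest LAMA1 in each group.

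LAMA3 (gene ID 100336873), the alpha chain of the laminin that anchors epithelia through hemidesmosomes, was measured at 324, 212, 540.5 and 406 in control samples and at 151, 71.3, 200.3 and 144 with IFNT. The groups did not overlap, but by little, since control number 2 and IFNT number 3 lay close together. The log2 change was -1.40 (SE 0.36, adjusted p = 0.0104), and each pair was lower, by 1.09 to 1.57 on the log2 scale. With PGF2A the samples were at 316, 191, 478 and 411, and with IFNT+PGF2A at 153, 90.05, 182 and 155. That log2 change was -1.23 (SE 0.36, adjusted p = 0.0238), again with no overlap. The call against control was lost without number 1 (adjusted p = 0.0537). The call against PGF2A was lost without PGF2A sample 3 or 4, IFNT+PGF2A sample 2, or number 1, 3 or 4 (adjusted p 0.0681 to 0.102).

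LAMB1 (gene ID 520030), the beta chain that LAMA1 pairs with in many basement membranes, was measured at 26592, 31377, 34320 and 33281 in control samples and at 20630, 21754, 26965 and 20909 with IFNT. IFNT number 3 lay above control number 1, so the groups overlapped, while each pair was lower. This gave a log2 change of -0.48 (SE 0.13, adjusted p = 0.0146). For IFNT+PGF2A the samples were at 21055, 20855, 25630 and 25847, against 26340, 27851, 32970 and 36275 with PGF2A. The log2 change there was -0.40 (SE 0.13, adjusted p = 0.0416), with no overlap. That call was lost in 13 settings (adjusted p 0.0502 to 0.166), among them TMM scaling, no filter on low values, and leaving out any 1 number. The call against control was lost without number 2 (adjusted p = 0.0911).

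The other 8 laminin chains did not pass for IFNT against control. LAMC1, the gamma chain of most laminins, had a mean of 21633 in control and 18722 with IFNT, with a log2 change of -0.21 (95% interval -0.56 to 0.15). LAMB2, the beta chain of vascular and synaptic laminins, had a log2 change of -0.02 (-0.26 to 0.22). LAMA4 and LAMA5, the alpha chains of endothelial basement membrane, had log2 changes of 0.04 (-0.51 to 0.60) and 0.09 (-0.30 to 0.48). LAMC3 had a log2 change of 0.21. LAMB3, a beta chain that assembles with LAMA3, had 0.00. Of the 11 laminin chains, 8 had a negative log2 change and 3 a positive one.

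LAMA2 (gene ID 100138434), the alpha chain of muscle basement membrane, passed only with the block, for IFNT+PGF2A. It was measured at 248, 129.8, 282 and 163 in control samples, 171, 148.5, 266 and 105 with IFNT, 246, 130.4, 289 and 164 with PGF2A, and 169, 80.9, 226 and 114 with IFNT+PGF2A. Numbers 1 and 3 were the highest in each group, and the groups overlapped. Each pair was lower for IFNT+PGF2A against PGF2A, where the log2 change was -0.53 (SE 0.36, adjusted p = 0.353 without the block and 0.00919 with it). For IFNT against control it was -0.26 (adjusted p = 0.655, and 0.149 with the block).

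Among the integrin alpha chains, ITGAE (gene ID 100140050) had the largest negative change of the 34 members in both IFNT comparisons. It encodes alpha E, which pairs with the beta chain of ITGB7 and binds E-cadherin, and is best known on T cells that lodge in epithelia. It was measured at 546, 553.8, 622 and 673 in control samples and at 199, 166, 244.5 and 275 with IFNT. Its log2 change was -1.46 (SE 0.20, adjusted p = 5.35e-05), a level 2.75-fold lower. With PGF2A it was measured at 512, 514, 563 and 651, and with IFNT+PGF2A at 177, 191, 241 and 348. That log2 change was -1.27 (SE 0.20, adjusted p = 2.1e-04). The groups did not overlap in either comparison, and all 8 pairs were lower.

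Its partner ITGB7 had 6.1 to 26.4 normalized counts over the 16 samples and did not pass (log2 change 0.40, 95% interval -0.44 to 1.23). Of T and NK cell markers, 2 of 10 passed the filter. The summed level of those 10 was 52.3 to 90.99 in control samples and 96.4 to 134.7 with IFNT, and CD4, CD8A and CD3D each had at most 12.3 in any sample. It was 35.8 to 78.5 with PGF2A and 69.8 to 146.5 with IFNT+PGF2A, where the ranges overlapped. The part of such cells in the result was not tested.

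ITGA11 (gene ID 523755), a receptor for fibrillar collagen on fibroblasts and related stromal cells, was measured at 841, 862, 938 and 1109 in control samples and at 612, 352, 581 and 758 with IFNT. The groups did not overlap, and number 2 showed the widest gap. The log2 change was -0.75 (SE 0.21, adjusted p = 0.0191). With PGF2A it was measured at 924, 742, 964.5 and 878, and with IFNT+PGF2A at 703, 367, 559 and 536. That log2 change was -0.73 (SE 0.21, adjusted p = 0.0251), with no overlap. The call against control was lost without control sample 4, IFNT sample 2 or number 3, and with only the groups compared in the fit (adjusted p 0.0526 to 0.115). The call against PGF2A was lost without PGF2A sample 1, 3 or 4, IFNT+PGF2A sample 2, or number 1 or 3 (adjusted p 0.0514 to 0.163).

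The fibroblast markers did not move in 1 direction with IFNT. Of 12 tested, LUM fell (log2 change -0.61, adjusted p = 3.87e-04) and THY1 rose (1.07, adjusted p = 0.0295), and with the block 4 were higher and 5 lower. Of all genes tested, 24.0% passed in either direction without the block and 43.5% with it. The summed level of the 12 markers was 852026 to 1376631 in control samples and 661330 to 1240924 with IFNT. Their part in the ITGA11 change was not tested.

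ITGA9 (gene ID 532127), whose product binds tenascin C, osteopontin and VCAM1, was the member that passed as higher in both IFNT comparisons without the block. ITGA3, ITGA4 and ITGB5 did so too with the block. ITGA9 was measured at 593, 781, 703 and 729 in control samples and at 786, 1033, 1079 and 982 with IFNT. The fit gave a log2 change of 0.46 (SE 0.12, adjusted p = 0.00899), with each pair higher and no overlap, although control number 2 and IFNT number 1 were close. With PGF2A it was measured at 586, 645, 593 and 700.3, and with IFNT+PGF2A at 738, 835, 910 and 893. That log2 change was 0.42 (SE 0.12, adjusted p = 0.0184), with no overlap. Higher groups without overlap were found for 12.1% and 15.7% of all genes in these comparisons. The call against control was lost without number 2 or 3 and with only the groups compared in the fit (adjusted p 0.0529 to 0.101). The call against PGF2A was lost without PGF2A sample 1 or 3, IFNT+PGF2A sample 3 or 4, or number 2 or 3 (adjusted p 0.0503 to 0.179).

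ITGA4 (gene ID 282882), whose product binds VCAM1 and fibronectin and serves leukocyte homing, had the largest positive change of the 34 members. It was measured at 86.2, 95.3, 66.6 and 49.8 in control samples and at 291, 627, 465 and 37.96 with IFNT. IFNT numbers 1 to 3 were far above all controls, and IFNT number 4, the library that stood apart, was below all of them. Its log2 change was 1.72 (SE 0.63, adjusted p = 0.0607, and 0.0112 with the block), and 2.60 (SE 0.34, adjusted p = 4.37e-05) without that library. With PGF2A it was measured at 67.1, 75.7, 89.4 and 75.7, and with IFNT+PGF2A at 201.2, 424, 382 and 167. Those groups did not overlap, and number 4 was higher with IFNT+PGF2A as well.

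For IFNT+PGF2A against PGF2A the log2 change of ITGA4 was 1.82 (SE 0.63, adjusted p = 0.0525). It passed with the block (adjusted p = 0.00869) and, with IFNT number 4 out of the shared estimate of spread, without it (SE 0.31, adjusted p = 4.89e-04). For IFNT+PGF2A against control, which shares the controls, ITGA4 passed in the fit without the block, with a log2 change of 1.90 (adjusted p = 0.0413). That call was lost in 16 settings (adjusted p 0.0508 to 0.217), among them no filter on low values and leaving out any 1 control, any 1 PGF2A sample, IFNT+PGF2A sample 1, 2 or 3, or number 1, 2 or 3. That comparison had 6 members past the test beside 22.1% of all genes: ITGA4 was higher (12.4% of all genes), and LAMA1, LAMA3, LAMB1, ITGAE and ITGA11 were lower (9.72%). With the block it had 9, beside 41.3%. The call there was lost in 8 settings for LAMB1 (adjusted p 0.0547 to 0.175), 5 for LAMA3 (0.0548 to 0.0755) and 1 for ITGA11 (0.0877). ITGA9 passed there only with the block (log2 change 0.27, adjusted p = 0.118 without the block and 0.0118 with it). In the authors' deposited table ITGA4 had a log2 fold change of 2.25 for IFNT against control (adjusted p = 0.00172).

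Blood cell marker sums are given beside ITGA4 without a test. The summed level of 10 macrophage markers was 502.8 to 679.4 in control samples and 605.7 to 852.9 with IFNT, so the ranges overlapped. The sum of 10 neutrophil, platelet and red cell markers was 408.7 to 4342 in control samples and 479.1 to 2656 with IFNT. That sum includes the red cell gene HBA, which alone had 44.6 to 4174 normalized counts over the 16 samples. The T and NK cell gene IL2RB rose (log2 change 1.34, adjusted p = 0.00316). C1QB, a complement gene of macrophages, and the B cell gene BLNK also passed, but from mean normalized counts of 4.07 and 0.748 in control to 25.3 and 19.1 with IFNT. Both had reached the filter through the groups with IFNT, and CD79B, also of B cells, had 5 reads in all 16 samples. In IFNT number 4, where ITGA4 was at 37.96, the T and NK cell sum was 96.4, the lowest of its group and above every control. Their part in the ITGA4 result was not tested.

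ITGA3 (gene ID 508490), a laminin receptor that pairs with the beta chain of ITGB1, was measured at 1007, 618, 830 and 1476 in control samples and at 1606, 1024, 1258 and 2304 with IFNT. Number 4 was the highest and number 2 the lowest in both groups, which overlapped, while the pairs were higher by 0.60 to 0.73 on the log2 scale. The log2 change was 0.66 (SE 0.30, adjusted p = 0.124, and 9.74e-05 with the block). With PGF2A it was measured at 995, 611, 799 and 1368, and with IFNT+PGF2A at 1736, 1184, 1315 and 1743. That log2 change was 0.71 (SE 0.30, adjusted p = 0.108, and 5.96e-05 with the block). The authors' deposited values for ITGA3 were 0.67 for this comparison (adjusted p = 0.0269) and 0.66 for IFNT against control (adjusted p = 0.163).

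The other laminin-binding alpha chains showed no call with or without the block. ITGA6 had a mean log2 change of 0.03 for IFNT against control (95% interval -0.54 to 0.61). ITGA7, known from muscle, had 0.07 (-1.21 to 1.35) and differed mostly by number. The collagen-binding chains other than ITGA11 did not pass either: ITGA1 had -0.13, ITGA2 -0.43 and ITGA10 0.09. The fibronectin receptor chain ITGA5 had 0.20 and its relative ITGA8 -0.16, and the platelet chain ITGA2B had 0.18.

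The leukocyte chains ITGAL and ITGAM, and their partner ITGB2, were near the filter. ITGAL had 3.05 to 14.7 normalized counts over the 16 samples, ITGAM 2.95 to 32.2 and ITGB2 12.8 to 37.1, and none passed. At such levels their intervals were wide, for ITGAM -1.45 to 1.33 on the log2 scale for IFNT against control.

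**Figure D2:**
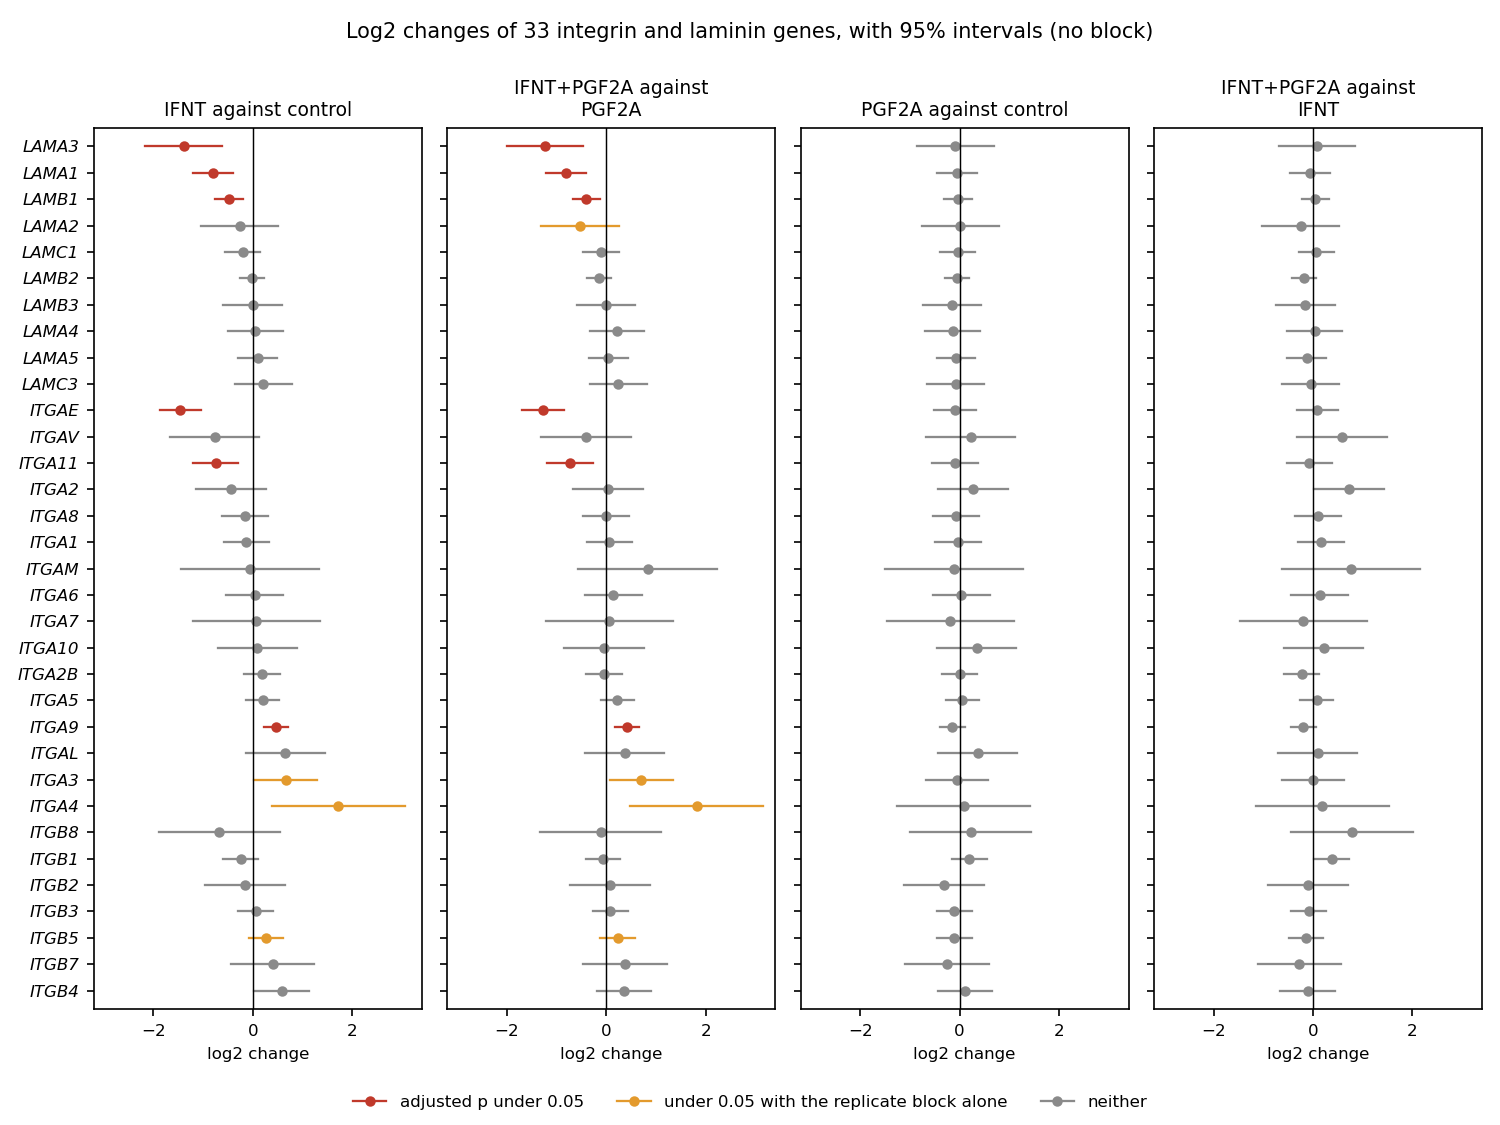
Log2 change (horizontal axes) of 33 of the 34 members in 4 comparisons, as points with 95% intervals from the fit without the block. Red marks an adjusted p under 0.05, orange an adjusted p under 0.05 with the replicate block alone and grey neither; no member is coloured in the PGF2A comparisons.

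Of the beta chains, ITGB5 (gene ID 282564), which pairs with alpha V and binds vitronectin, passed with the block. It was measured at 11122, 13705, 11439 and 15492 in control samples and at 13336, 15885, 12437 and 21230 with IFNT. The groups overlapped, and each pair was higher. This gave a log2 change of 0.26 (SE 0.16, adjusted p = 0.277, and 0.00816 with the block). With PGF2A it was measured at 10964, 12322, 11119 and 13297, and with IFNT+PGF2A at 12434, 15181, 11990 and 16724. That log2 change was 0.23 (SE 0.16, adjusted p = 0.368, and 0.0181 with the block).

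ITGB1, the partner of most laminin and collagen-binding alpha chains, had a log2 change of -0.25 for IFNT against control (95% interval -0.60 to 0.10). ITGB3 had 0.05 (-0.30 to 0.41). ITGB4, which pairs with the alpha chain of ITGA6 in hemidesmosomes, was at 28.95 to 101.6 normalized counts and had 0.58 (adjusted p = 0.123, and 0.0639 with the block).

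Alpha V showed how far number 4 could set a result. ITGAV, the common chain of the vitronectin receptors, was measured at 58503, 59127, 51679 and 26849 in control samples and at 43253, 41721, 39389 and 7945 with IFNT. Number 4 was the lowest in both groups, and all 4 pairs were lower. The fit gave a log2 change of -0.77 (SE 0.42, adjusted p = 0.210, and 0.0597 with the block). Without IFNT number 4 alone it was -0.18 (SE 0.22, adjusted p = 0.586), and without number 4 in any group it was -0.44 (SE 0.11, adjusted p = 0.00896).

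With PGF2A, ITGAV was measured at 56553, 57229, 53002 and 51587, and with IFNT+PGF2A at 45400, 47655, 36776 and 36157. These groups did not overlap, as was the case in the lower direction for 14.2% of all genes. The log2 change was -0.41 (SE 0.42, adjusted p = 0.565), and -0.37 (SE 0.11, adjusted p = 0.0246) without number 4. In the authors' deposited table it was -0.39 for IFNT+PGF2A against PGF2A (adjusted p = 0.00375) and -0.57 for IFNT against control (adjusted p = 0.462).

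ITGB8, a further partner of alpha V, was at 157 in control number 4 and 41.03 in IFNT number 4, against 336 to 517 in all samples of numbers 1 to 3. In the number 4 samples with PGF2A and IFNT+PGF2A it was nearer that range, at 313.8 and 280.8. The pericyte and smooth muscle marker sum was 225082 to 323070 in number 4 and 105991 to 139640 in the other numbers. ITGA7 was at 904 to 1277 in number 4 and 234 to 464.3 in the others. These levels by number were picked out after the values were seen.

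Without IFNT number 4 alone, 13 members' log2 changes for IFNT against control moved by over 1.5 times, counting those past 0.2 in size in either fit. ITGA4 is given above and was the 1 of them that passed. ITGB1 went from -0.25 to -0.05, ITGB5 from 0.26 to 0.11, ITGA2 from -0.43 to -0.15 and LAMA2 from -0.26 to -0.05. ITGA6 went from 0.03 to 0.34, ITGB4 from 0.58 to 0.36, ITGA5 from 0.20 to 0.06 and LAMC3 from 0.21 to 0.10. ITGB2 went from -0.16 to -0.29, while ITGB8 changed sign from -0.67 to 0.11 and ITGA7 from 0.07 to -0.41. That fit kept control number 4, so number 4 was no longer matched between the groups. All 4 pairs of ITGB8 were lower. With number 4 out of every group and the block in the fit, ITGB8 had -0.26 and ITGA7 0.06. The 6 members that passed with all samples passed without IFNT number 4 alone too.

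**Figure D3:**
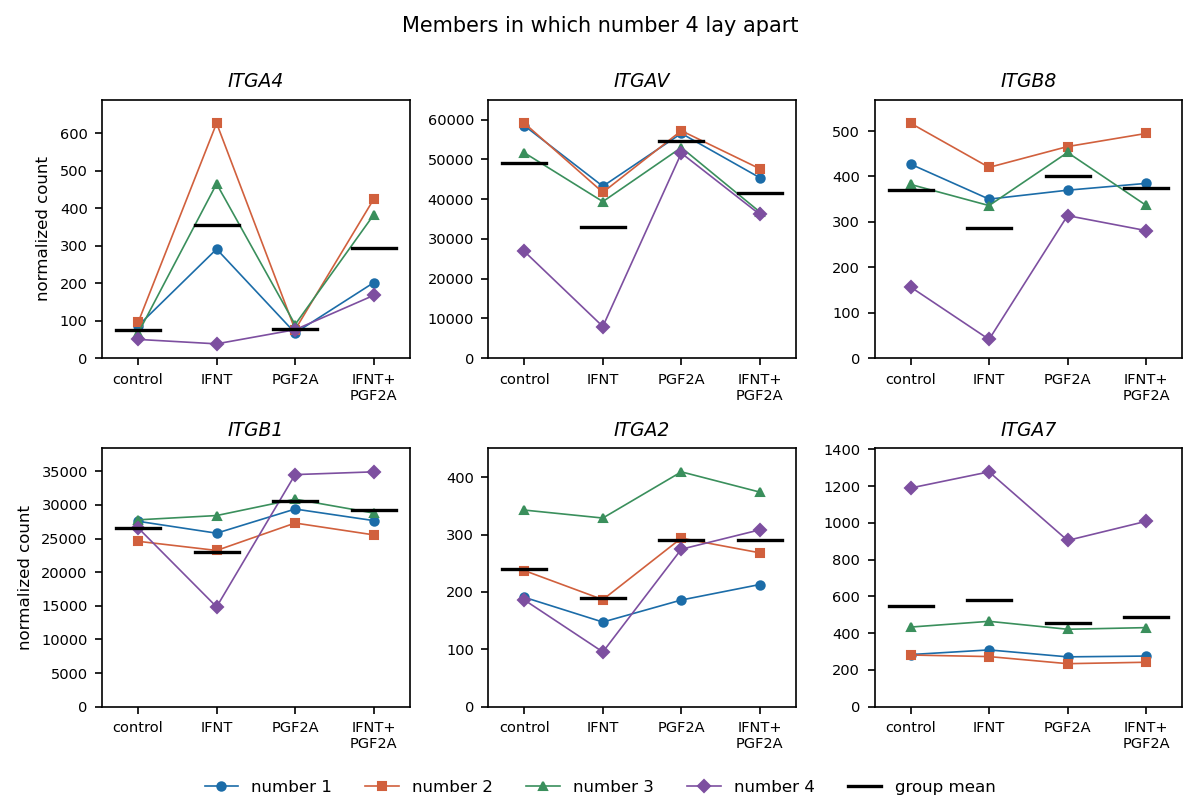
Normalized count (vertical axes, starting at 0) by treatment group for 6 members in which a sample of number 4 lay apart, chosen after the values were seen. Points are samples, lines join samples with the same number and black bars are group means; ITGAV was at 7945 in IFNT number 4 and at 39389 to 43253 in the other IFNT samples.

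The second question was what PGF2A did, alone and on top of IFNT. No member passed for PGF2A against control, where 0% of all genes did, or for IFNT+PGF2A against IFNT, where 0.00708% did. With limma without the block, 0 members had an unadjusted p under 0.05 in the first comparison and 2 (ITGB1 and ITGA2) in the second. Of all 14122 genes, 155 and 356 did. With the block, 3 and 6 members had such a p, beside 866 and 1380 of all genes. The block, edgeR and DESeq2 also called 0 members in each, while the block called 0.163% and 0.701% of all genes.

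ITGA2, a collagen receptor chain, was measured at 148, 187, 329 and 95.4 with IFNT and at 213, 268, 374 and 308 with IFNT+PGF2A. Number 4 accounted for the widest gap, and the groups overlapped. Its log2 change was 0.73 (95% interval 0.03 to 1.44, adjusted p = 0.997). Without IFNT number 4 alone it was 0.45 (adjusted p = 1), and with the block and without number 4 it was 0.41 (adjusted p = 0.0447).

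ITGB1 had a log2 change of 0.37 for IFNT+PGF2A against IFNT (adjusted p = 0.997), with 1.24 in pair 4 and 0.02 to 0.14 in the other 3 pairs, and 0.17 without IFNT number 4. For PGF2A against control, 24 of the 34 members had a 95% interval within 1 of 0 on the log2 scale, and 30 did with the block. The data therefore did not bound the PGF2A change of each member to less than 2-fold.

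The third question was whether PGF2A altered the response to IFNT. No member passed the interaction test, and neither did any of the 14122 genes. Without the block 0 members and 40 of all genes had an unadjusted p under 0.05, and edgeR and DESeq2 called 0 members. The difference between the IFNT changes was 0.19 for ITGAE (95% interval -0.40 to 0.78), -0.01 for LAMA1 (-0.58 to 0.55) and 0.17 for LAMA3 (-0.92 to 1.25). It was -0.05 for ITGA9 (-0.40 to 0.31), 0.08 for LAMB1 (-0.31 to 0.47) and 0.02 for ITGA11 (-0.63 to 0.67). A p that misses the threshold does not show that the responses were alike, and for LAMA3 the interval reaches past a 2-fold difference.

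The sample number held a larger median share of the variation of these genes than treatment did. The sum of squares of each member's log2 values over the 16 samples was split into treatment, number and the rest. The median share was 21.5% for treatment, 50.3% for number and 17.2% for the rest. Treatment held the largest share in 7 members, number in 21 and the rest in 6. IFNT took over 50% in 7 members: ITGAE with 87.5%, LAMA1 with 72.4%, LAMB1 with 65.2%, LAMA3 with 64.6%, ITGA9 with 64.5%, ITGA11 with 62.2% and ITGA4 with 51.3%. PGF2A took at most 27.7%, in ITGB1. Number took over 50% in 17 members, with 97.9% in ITGA7, 87.6% in ITGA10 and 85.1% in LAMA4. The split covers the members alone.

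**Figure D4:**
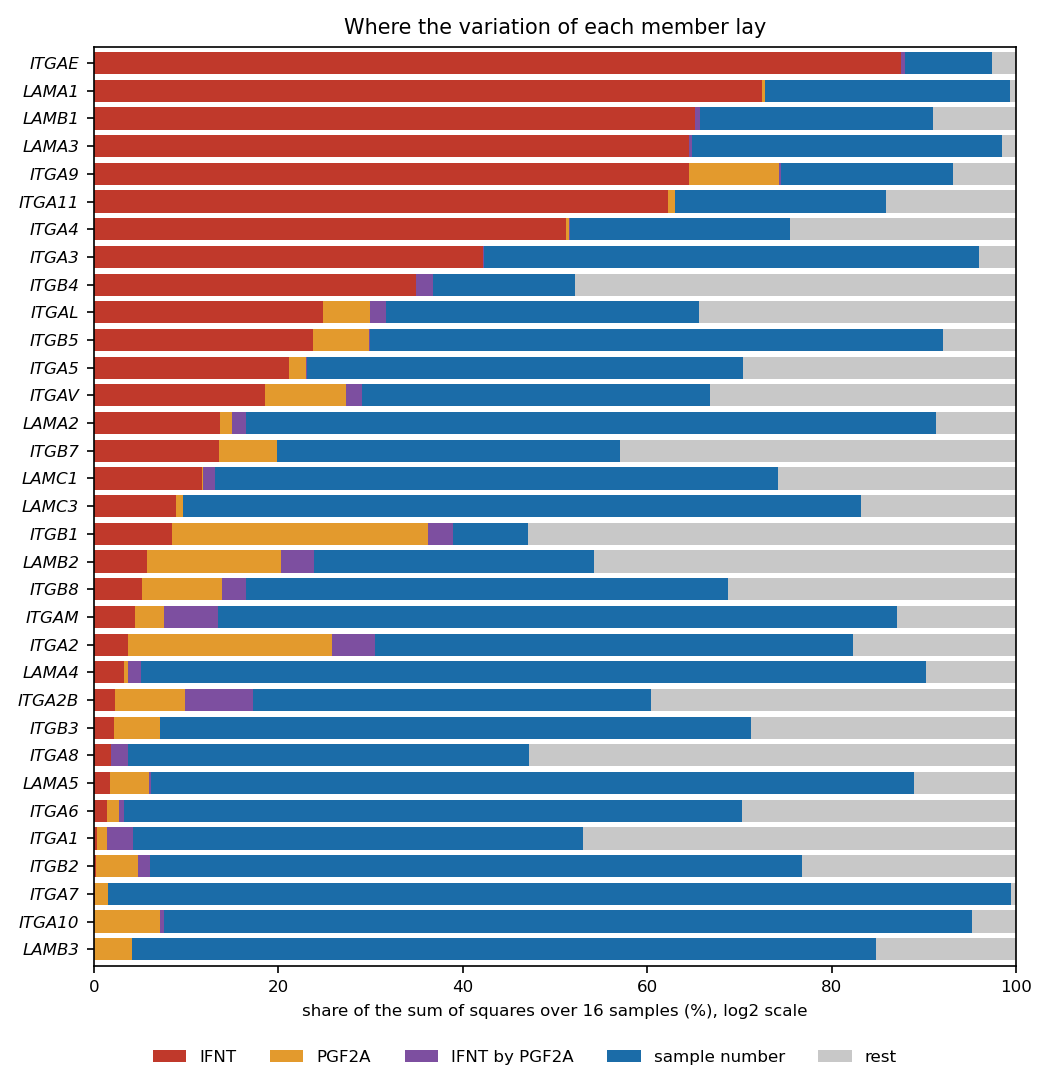
Share of the sum of squares of log2 values over 16 samples (horizontal axis, %) for 33 of the 34 members, split into IFNT, PGF2A, their interaction, the sample number and the rest. Members are ordered by the IFNT share, from 87.5% in ITGAE at the top, and number held the largest share in 20 of those shown.

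The partners of these receptors and laminins were read from lists. Of 29 tested genes of integrin adaptors and focal adhesion, 5 rose and none fell for IFNT against control (10 and 3 with the block). The counts of this and the next 3 lists stand beside 13.1% of all genes higher and 10.9% lower, and 43.5% in either direction with the block. The smallest adjusted p belonged to PTK2, the focal adhesion kinase (log2 change 0.37, SE 0.08, adjusted p = 0.00234), TNS3, a tensin (0.38, SE 0.12, adjusted p = 0.0242) and BCAR1, an adaptor phosphorylated at adhesions (0.59, SE 0.19, adjusted p = 0.0316). Talin 1 (TLN1) had 0.18 and the integrin-linked kinase gene ILK -0.03, and neither passed. The list's median was 0.15, beside -0.04 over all genes.

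Of 17 tested basement membrane genes other than laminins, 2 rose and none fell. AGRN, which encodes the laminin-binding proteoglycan agrin, had a mean of 2410 ± 523 (SD, n = 4) in control and 12562 ± 3191 with IFNT, a log2 change of 2.38 (SE 0.23, adjusted p = 1.56e-06). TINAGL1, a matricellular gene, had 1.01 (SE 0.25, adjusted p = 0.00773). With the block 4 were higher and 7 lower, among them COL15A1 (-0.81, adjusted p = 1.34e-05 with the block) and the perlecan gene HSPG2 (-0.35, adjusted p = 0.00937 with the block). The collagen IV gene COL4A1 had 0.09 and did not pass. The list's median was 0.04.

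Of 21 tested integrin ligands, 4 rose and 1 fell (6 and 6 with the block). VCAM1, a ligand of the alpha 4 and alpha 9 chains, rose from 1630 ± 480 to 3962 ± 1141 (log2 change 1.27, SE 0.25, adjusted p = 0.00175). ICAM1, a ligand of the leukocyte integrins, rose by 1.12 (SE 0.13, adjusted p = 1.27e-05). EMILIN1, an elastic fibre gene that alpha 9 binds, rose by 0.84 (SE 0.25, adjusted p = 0.0247), and CDH1, the E-cadherin that alpha E binds, by 1.29 (SE 0.39, adjusted p = 0.0255). THBS2, a thrombospondin, fell by 0.84 (SE 0.09, adjusted p = 4.29e-06).

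SPP1, which encodes osteopontin, was the 1 gene of these lists that passed for PGF2A against control, and only with the block (log2 change 0.63, adjusted p = 1 without it and 0.0297 with it). The list's median was -0.14 for IFNT against control.

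Of 19 tested laminin receptors other than integrins and integrin partners, 4 rose and none fell (6 and 1 with the block). CD81, a tetraspanin that associates with integrins, had a log2 change of 1.27 (SE 0.14, adjusted p = 5.72e-06). The syndecans SDC1 and SDC4 had 0.84 (SE 0.18, adjusted p = 0.00331) and 0.58 (SE 0.16, adjusted p = 0.0140). CD47, an integrin-associated receptor for thrombospondin, had 0.77 (SE 0.23, adjusted p = 0.0247). The dystroglycan gene DAG1 had -0.13 and did not pass, and the list's median was 0.02.

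The counts of these 4 lists for IFNT+PGF2A against PGF2A were 4, 2, 3 and 4 higher and 0, 0, 1 and 0 lower. They are out of 29, 17, 21 and 19 tested genes, beside 12.3% of all genes higher and 8.54% lower. AGRN had a log2 change of 2.13 there (adjusted p = 5.63e-06), VCAM1 1.59 (adjusted p = 2.88e-04) and THBS2 -0.73 (adjusted p = 2.24e-05).

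Some endothelial, pericyte and luteal markers passed for IFNT against control without the block, in each list a share below the 24.0% of all genes. Of 12 endothelial markers 2 rose, TEK (log2 change 1.00, adjusted p = 0.0255) and ERG (1.27, adjusted p = 0.0198), and 10 did with the block, beside 43.5% of all genes in either direction. Their summed level was 10844 to 27964 in control samples and 13379 to 38093 with IFNT. PDGFRB was the 1 marker of 12 for pericytes and smooth muscle that rose (0.47, adjusted p = 0.00227), and of 10 luteal steroidogenic markers CYP11A1 (-1.03, adjusted p = 0.00207) and NR5A1 (-0.76, adjusted p = 0.00230) fell. With the block, 5 of the 12 pericyte and smooth muscle markers were higher and 1 lower. Of the 10 luteal markers, 1 was higher and 5 lower with it. Of the 4 tested markers of neutrophils, platelets and red cells, none passed without the block and 1 was lower with it. The part of these cell types in the integrin and laminin changes was not tested.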

How the data were processed

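RNA from 16 cultures was sequenced as paired 100 bp reads on the DNBSEQ platform, per the labels' protocols. Tools named in the submitters' processing notes are RSEM 1.2.8, HISAT2 2.0.4, Bowtie2 2.2.5 and DESeq2. The genome build, the annotation and the use of strand are not stated in those notes or the labels. RSEM divides multi-mapping reads among genes, which leaves close paralogs and overlapping genes uncertain. Levels were not compared between genes, since transcript lengths were not used. The authors deposited 7 tables, which hold size-factor-normalized counts (a signal per gene and sample) and, per comparison, a log2 fold change, p-value and adjusted p-value. All values came out as whole reads within 0.001.

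Groups and numbers came from sample titles. Genes reaching 10 normalized counts in 4 or more of 16 samples were tested with limma 3.58.1 (R 4.3.3) on log2(normalized count + 0.5), with trend, 4 group means from all samples and Benjamini-Hochberg adjustment (threshold 0.05). Fold changes on this scale understate the change of low genes. The fit was tested on simulated data. Same-numbered samples paired: their deviations correlated at 0.352 to 0.719, against at most 0.0402 for other pairs, and 16 of 16 samples correlated best with their own number. This pairing comes from the data, not the labels. Alternatives were the number as a replicate block, pseudocounts of 1 and 5, other filters (none, and a mean of at least 50), TMM, edgeR 4.0.16, DESeq2 1.42.0, only the groups compared, and leaving out samples or numbers. Symbols were compared with RefSeq ARS-UCD2.0, where 36 of 37 members had the same one.

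The members and gene lists were chosen with earlier results of these data known. Members past the test in any comparison, with or without the block, are given in full. From each list, up to 3 genes per direction with the smallest adjusted p for IFNT against control are named, plus any that passed for PGF2A. TLN1, ILK, COL4A1, COL15A1, HSPG2, DAG1, CDH1, CD47 and the low markers go beyond that rule and were named after their values were seen. Values of 1 member and of 1 marker gene are not reported here.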

Additional observations from a re-analysis of the deposited data

Results flagged for a closer look

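In each of 136 groups of 4 samples (34 members in 4 groups), the highest and lowest sample were compared with the nearest of the others by Dixon's ratio of that gap to the whole range. In 4 groups the ratio was above the 95% critical value for 4 samples. Chance flags about 1 in 20 groups, or 6.8 of 136, so the number of such groups is not above that.

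ITGAV had a normalized count of 7945 in IFNT number 4, against 39389 to 43253 in the other 3 IFNT samples. ITGA7 had 1189 in control number 4, against 281.1 to 433 in the other controls. ITGAM had 23.8 in control number 3, against 4.79 to 7.47. LAMB3 had 392.7 in IFNT number 2, against 234.2 to 251.7. Of the 4 samples, 2 were of number 4. In no member was the difference between the IFNT changes with and without PGF2A past the test.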

How the results depend on the processing

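Of the members' log2 changes under all alternatives, 6718 kept their side of the threshold, 89 came to pass it and 71 no longer passed. Where called, 0 changed direction. Some of the 6718 that were not called did change direction, such as those of ITGB8 and ITGA7 given above. The number pairs the samples, and the replicate block gave 9, 11 and 9 members past the test for IFNT against control, IFNT+PGF2A against PGF2A and IFNT+PGF2A against control. With the block in edgeR these were 10, 12 and 9. Over all genes, the block gave 6140, 5696 and 5837 calls in these comparisons, 23 for PGF2A against control and 99 for IFNT+PGF2A against IFNT. The block in edgeR gave 6126, 5740, 5891, 28 and 91. Fitting only the groups compared gave 2118 genes for IFNT against control. For PGF2A against control, 2 genes passed without the filter and 2 in DESeq2, and for IFNT+PGF2A against IFNT 9 passed in DESeq2. Beyond the block, none of these settings moved a count of members by over 1.5 times; the cause of each move was not tested.

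Leaving out 1 sample or 1 number, with or without the block, changed these counts. For IFNT against control the range was 3 to 8 members and 1809 to 4273 genes (8 to 13 and 4282 to 7925 with the block). For IFNT+PGF2A against PGF2A it was 2 to 7 members and 1463 to 4094 genes (8 to 11 and 3784 to 7587 with the block). For IFNT+PGF2A against control it was 2 to 7 members and 1629 to 4318 genes (7 to 15 and 3945 to 7607 with the block). It gave 0 to 96 genes for PGF2A against control, and 0 to 334 genes and 0 to 1 members for IFNT+PGF2A against IFNT. The count of 6 members for IFNT against control became 3 without number 2, where LAMA1 (adjusted p = 0.0518), LAMB1 (0.0911) and ITGA9 (0.0534) no longer passed. The 6 for IFNT+PGF2A against PGF2A became 2 without PGF2A sample 3 or without number 3, and 3 without PGF2A sample 4, IFNT+PGF2A sample 2 or number 1. The 6 for IFNT+PGF2A against control became 3 without control sample 3, IFNT+PGF2A sample 2 or number 1, and 2 without number 3. Without IFNT sample 4 the counts for the first 2 comparisons were 7 and 7. Over all genes, calls for IFNT against control fell from 3384 to 1965 without number 2. Without number 3 they fell from 2948 to 1463 for IFNT+PGF2A against PGF2A and from 3127 to 1629 for IFNT+PGF2A against control. ITGAE passed in every setting of these 3 comparisons.

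Intervals were widest for ITGAM, which had few reads, and for ITGA4, ITGA7 and ITGB8, which varied between numbers. For IFNT against control, without the block, the 95% interval of each of these reached past 1 in size on the log2 scale. The intervals of ITGAL and ITGB7, also with few reads, and of ITGAV, with many, did so too.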
